A study of Mus musculus with 6 samples.

Results

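The transcripts described here belong to 10 genes of the integrated stress response and the unfolded protein response: Atf4, Atf3, Ddit3, Trib3, Asns, Chac1, Sesn2, Hspa5, Herpud1 and Xbp1. The rule that selects them uses gene symbols only and no measured value, although the list was drawn up with earlier results of these data known. They were found in a count table of 55401 genes by matching its Ensembl identifiers to symbols. All 10 were found, and all 10 had enough counts to be tested. Total RNA had been sequenced from V6.5 cells, a line of mouse embryonic stem cells derived from hybrid embryos, in 2 genotypes with 3 libraries each. The first genotype was wild type (WT), with no allele or treatment named in the labels. In the second, labelled as an E-cadherin knockout and given as Cdh1-/- in the design, both copies of the gene of the adhesion protein E-cadherin were disrupted. Neither genotype had received a stress-inducing agent according to the labels. Whether the knockout line is 1 clone, whether the libraries came from separate cultures, and how the cells were grown are not given in the sources used here, so the p-values measure only the spread between these libraries.

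The integrated stress response begins with 4 kinases that sense haem shortage, double-stranded RNA, unfolded protein in the endoplasmic reticulum (ER) or uncharged tRNA, and that phosphorylate the translation factor eIF2. General translation then falls, while the mRNA of the transcription factor ATF4 is translated more, so that the level of the Atf4 transcript alone does not report how much ATF4 protein is made. ATF4 induces genes of amino acid synthesis and transport, further transcription factors such as ATF3 and CHOP (the product of Ddit3), and feedback inhibitors. The unfolded protein response adds the ER sensors IRE1, which splices the Xbp1 mRNA, and ATF6, which is cleaved to an active factor, and both induce ER chaperones. Embryonic stem cells divide fast and make much protein, which places a demand on amino acid supply and on protein folding.

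Promoters of some of these genes hold letters that match the elements through which the responses act, and stretches with such a match are shown for 5 of the 10 members. RefSeq windows from 250 bases before to 50 bases after the annotated start (GRCm38.p6) were available for 10 of 10 members and searched on both strands for 4 motifs. The Atf3 window lies well inside the gene span given below, so the upstream end of that span was not searched. The core of the ATF4 response element was searched as TGATGNAAN. It occurred in the windows of 5 of 10 members, Asns, Atf3, Chac1, Herpud1 and Trib3, and in 3.95% of 32851 mouse windows. The ER stress element of the unfolded protein response was searched as CCAAT and CCACG with 9 free bases between them. It occurred in 1 member, Hspa5, and in 0.119% of all windows. The following stretches run 5′ to 3′ on the strand of the gene, from RefSeq, with the matching bases in capitals. Where the stretch lies inside exons of the count table, 30 bases are shown.
Asns (chr6:7693214-7693243, minus strand): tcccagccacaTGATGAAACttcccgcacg
Atf3 (chr1:191183401-191183480, minus strand): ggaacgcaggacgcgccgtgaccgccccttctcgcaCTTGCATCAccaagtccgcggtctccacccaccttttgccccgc
Chac1 (chr2:119351012-119351091, plus strand): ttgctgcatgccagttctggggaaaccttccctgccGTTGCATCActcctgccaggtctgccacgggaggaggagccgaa
Herpud1 (chr8:94386280-94386359, plus strand): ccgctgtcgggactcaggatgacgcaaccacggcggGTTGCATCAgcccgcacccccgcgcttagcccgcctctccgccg
Hspa5 (chr2:34772019-34772048, plus strand): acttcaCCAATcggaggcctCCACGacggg

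In Asns the ATF4 core reads in the direction of the gene, and in Atf3, Chac1 and Herpud1 it lies on the opposite strand, so that the capitals show its reverse complement. The Trib3 match lies 13 bases after the annotated start and is not printed. Among the other motifs, CCACG, which is the downstream part of the ER stress element and therefore overlaps it in Hspa5, occurred in 6 of 10 members and in 32.8% of all windows. The CRE-like core TGACGT, a site of the ATF and CREB family, occurred in Atf3 and Hspa5 and in 7.51% of all windows. Ddit3 and Xbp1 matched none of the 4 motifs in these windows. These are matches of letters in a short window and carry no measurement of binding.

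The libraries held between 18020719 and 23381942 counts, and knockout replicate A had the fewest. Cdh1, the targeted gene, lay between 537 and 571 CPM (counts scaled to a fixed library total) in the WT libraries and between 166 and 183 CPM in the knockout libraries, which matches the labels. The 10 embryonic stem cell markers, among them Pou5f1, Nanog and Sox2, were all tested, and their summed level was 4915 to 5341 CPM in WT and 5435 to 6629 CPM in the knockout. Of 12 markers of fibroblasts, which often serve as feeder cells, 7 were tested and 2 were at 0 in every library, with a sum of 37.0 to 51.5 CPM in WT and 39.4 to 49.5 CPM in the knockout. Of 8 endoderm markers 7 were tested. All 7 were higher in the knockout at an adjusted p under 0.05 (edgeR's quasi-likelihood test), against 7.60% of all tested genes. Their sum was 137 to 307 CPM in the knockout against 46.5 to 84.1 CPM in WT. The part of these marker differences in the results below was not tested. Relative to the other autosomes, the median gene of chromosome 1 was 0.31 lower and that of chromosome 14 was 0.54 higher in the knockout than in WT on the log2 scale, which bears on Atf3, a chromosome 1 gene, and on several pathway genes. Of the 7 endoderm markers 3 lie on these chromosomes, and all 7 stayed higher by the same test with the chromosome medians removed. In RNA from whole cultures, fewer cells of a type and less RNA per cell cannot be told apart.

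None of the 10 stress genes passed the test for a difference between the genotypes. The call required an adjusted p under 0.05 in edgeR's quasi-likelihood test with Benjamini-Hochberg adjustment over 17325 tested genes. By that rule 0 of 10 members were called, against 13.3% of all tested genes, of which 7.60% were higher and 5.71% lower in the knockout. DESeq2 and limma-voom also called 0 of 10. At an unadjusted p under 0.05 edgeR gave 2 members, Hspa5 and Herpud1, where 26.7% of all genes passed, DESeq2 gave 0 and limma-voom gave 1. Single libraries moved this count: it was 0 without WT replicate A or knockout replicate C, 3 without WT replicate C, and 4 without WT replicate B or knockout replicate B. The libraries of the 2 genotypes overlapped for every member, while for 30.7% of all tested genes they did not. The median log2 fold change, knockout minus WT, was -0.17 over the members and -0.0071 over all tested genes, with 3 estimates higher and 7 lower.

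These genes were counted well enough for the differences to be bounded. Their mean counts ranged from 323 for Atf3 to 11817 for Asns, and the lowest single count was 206. The 95% interval of every member excluded a 2-fold change in either direction, and for 7 of 10 it also excluded a 1.5-fold change. Levels below are CPM after TMM scaling, a correction of library size by the bulk of the genes, and fold changes are on the log2 scale.

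**Figure D1:**
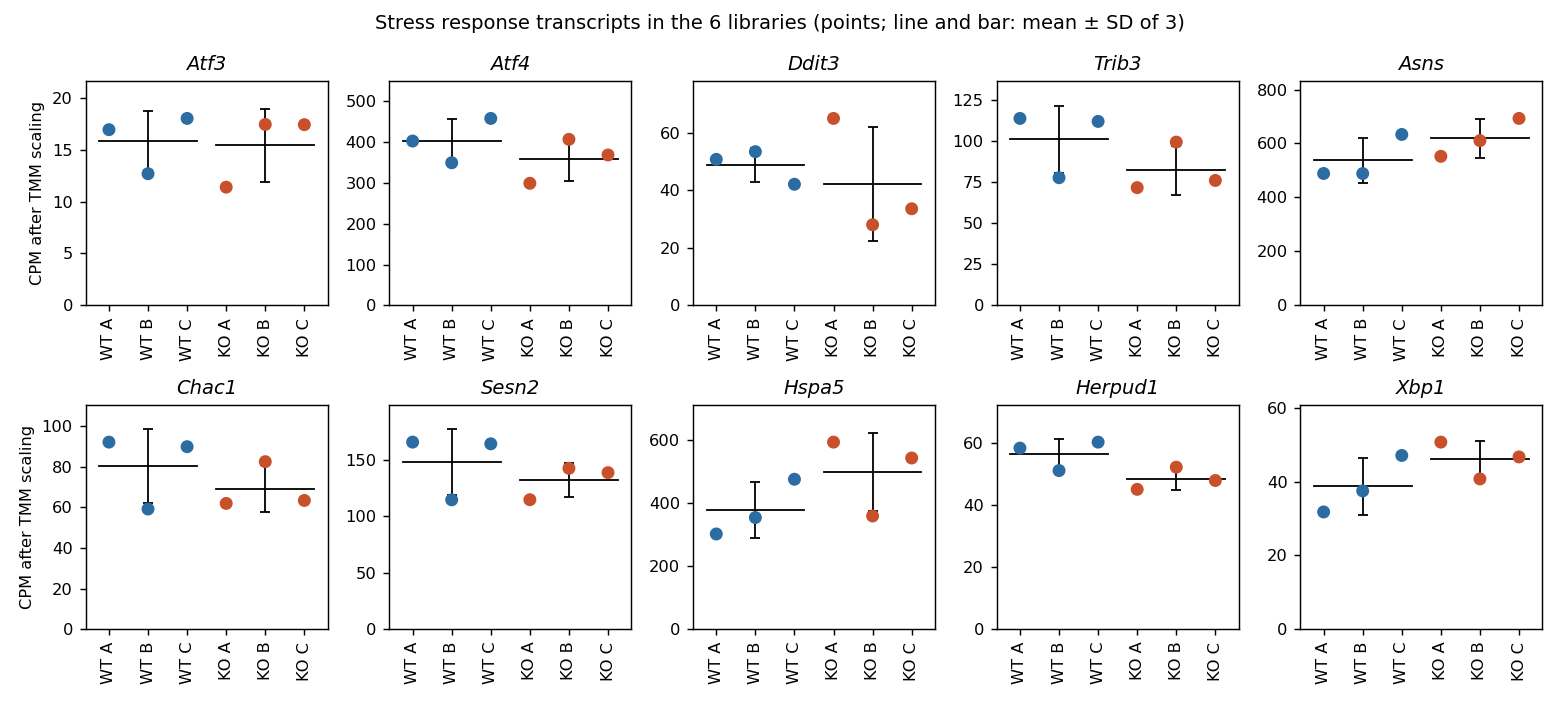
Level of each of the 10 stress transcripts in CPM after TMM scaling (vertical axes, each from 0) in the 3 WT libraries (blue) and the 3 knockout libraries (orange), with the mean and SD of 3 libraries as line and bar. The points of the 2 genotypes overlap in every panel, and Ddit3 has its highest and its lowest level both among the knockout libraries.

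Compared per length of exon, the members covered a wide range of levels in WT. Asns at 248 ± 38.7 CPM per kb and Atf4 at 234 ± 31.5 CPM per kb were highest and overlapped each other (SD, n = 3). Hspa5 followed at 100 ± 23.7 CPM per kb, apart from its neighbours in the order. A middle group whose neighbours overlapped held Ddit3 at 54.8, Trib3 at 49.8, Chac1 at 49.1 and Sesn2 at 42.6 CPM per kb. Herpud1 at 28.9, Xbp1 at 16.3 and Atf3 at 7.37 CPM per kb were lowest, and none of these 3 overlapped its neighbours. In the knockout the order was the same except that Chac1 and Trib3, whose libraries overlapped, changed places, and that Asns at 286 ± 32.6 CPM per kb lay above every library of Atf4 at 208 ± 31.7 CPM per kb.

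Atf4 encodes the central transcription factor of the integrated stress response (chr15:80255184-80257541, plus strand). WT libraries A to C held 403, 350 and 458 CPM of it, against 299, 407 and 369 CPM in knockout libraries A to C. Replicate A was the lowest knockout library, WT replicate C was the highest of all 6, and the genotypes overlapped. The difference of -0.17 (SE 0.12, 95% interval -0.42 to 0.081) did not pass the quasi-likelihood test of edgeR (adjusted p 0.393). Leaving out 1 library moved it to between -0.26 (without WT replicate B) and -0.056 (without knockout replicate A).

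Atf3 encodes a stress-induced repressor and activator of the same family (chr1:191170296-191218039, minus strand). In the order A, B, C the WT level was 16.9, 12.7 and 18.0 CPM and the knockout level 11.4, 17.4 and 17.4 CPM. Again WT replicate B and knockout replicate A were the low libraries, within the same range in both genotypes. Its fitted difference was -0.040 (SE 0.18, edgeR adjusted p 0.922). After the chromosome 1 median of each library was removed the estimate turned to 0.27, with an adjusted p of 0.397, and it was also above 0 without WT replicate A (0.0088), WT replicate C (0.068) or knockout replicate A (0.13), so the sign of the Atf3 difference was not determined. Over 17 alternatives its adjusted p ranged from 0.397 to 0.995.

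Ddit3, which encodes the pro-apoptotic factor CHOP (chr10:127290774-127296288, plus strand), was the least even member. Libraries A to C stood at 50.7, 53.4 and 42.1 CPM for WT and at 64.9, 28.0 and 33.6 CPM for the knockout. Knockout replicate A was above all WT libraries, and knockout replicates B and C were below all of them. With the 3 libraries together the difference was -0.21 (SE 0.23, 95% interval -0.70 to 0.27, edgeR adjusted p 0.607). Without knockout replicate A, which leaves 2 knockout libraries, it was -0.66 with an adjusted p of 0.00104, and without knockout replicate B it was 0.024 with an adjusted p of 0.965, the lowest and the highest value over 17 alternatives. A second row of 105 bases also carries the symbol Ddit3, covers 11.8% of its exon bases on the same strand and had 0 counts in every library. Another 9.10% of the exon bases of Ddit3 face genes on the opposite strand. Whether reads were counted by strand is not given in the sources used here, and those in these overlaps may have been assigned to neither gene. The exons of the other 9 members overlapped no other gene.

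The remaining transcriptional targets of ATF4 in the list were lower in the estimate, except Asns. Trib3, which encodes a pseudokinase that feeds back on ATF4 and CHOP (chr2:152337422-152344032, minus strand), was counted at 114, 77.5 and 112 CPM in WT A to C against 71.5, 99.2 and 75.9 CPM in knockout A to C. One low WT library, B, and one high knockout library, B, made the groups overlap. Of all members Trib3 had the most negative estimate, -0.30 (SE 0.15, 95% interval -0.61 to 0.017, edgeR adjusted p 0.215). With 1 library left out it ranged from -0.45 (without WT replicate B) to -0.20 (without WT replicate A).

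Chac1, whose product degrades glutathione (chr2:119351229-119354381, plus strand), showed the same arrangement of libraries as Trib3. From A to C it reached 92.2, 59.2 and 89.9 CPM in WT, compared with 62.0, 82.6 and 63.4 CPM for the knockout. The lowest library of all was WT replicate B. Its difference was -0.21 (SE 0.15, edgeR adjusted p 0.414), and it lay between -0.39 without WT replicate B and -0.10 without WT replicate A.

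Sesn2 encodes sestrin 2, a leucine-binding inhibitor of mTORC1 signalling (chr4:132492032-132510501, minus strand). Its transcripts made up 166, 114 and 164 CPM of WT libraries A to C, and 115, 142 and 139 CPM of knockout libraries A to C. WT replicate B and knockout replicate A were almost equal and lay below the other libraries. An estimate of -0.17 (SE 0.13, edgeR adjusted p 0.458) became -0.32 without WT replicate B and -0.075 without knockout replicate A, its extremes with 1 library left out.

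Asns, which encodes asparagine synthetase and was the most abundant member per length (chr6:7675169-7693254, minus strand), was one of 3 members with a higher estimate in the knockout. WT A to C gave 489, 489 and 634 CPM, whereas knockout A to C gave 552, 611 and 693 CPM. WT replicate C lay above knockout replicates A and B. An estimate of 0.20 (SE 0.11, 95% interval -0.035 to 0.44) had an adjusted p of 0.267 in edgeR. It was 0.35 once WT replicate C was left out and 0.12 once knockout replicate C was, the extremes of the fits that left out 1 library.

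On the side of the unfolded protein response, Hspa5 had the largest estimate of the 10 genes. It encodes BiP, the main ER chaperone and a regulator of the ER sensors (chr2:34771970-34777547, plus strand). The WT libraries, from A to C, held 302, 354 and 475 CPM, against 593, 359 and 543 CPM for the knockout libraries. Knockout replicate B lay just above the middle WT library, while knockout replicates A and C exceeded every WT library. The fold was 1.32 (95% interval 1.02 to 1.70), or 0.40 on the log2 scale with an SE of 0.17, and it did not pass the adjustment over all genes (edgeR adjusted p 0.147). This call depended on single libraries: without WT replicate C the estimate was 0.61 with an adjusted p of 0.0419, and without knockout replicate B it was 0.60 with an adjusted p of 0.0267. It also depended on the filter, since with every gene of at least 1 count kept in the fit the estimate was 0.43 with an adjusted p of 8.2e-05. It was lower without WT replicate A (0.27) or knockout replicate A (0.26), and the highest adjusted p over 17 alternatives was 0.466.

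Xbp1 encodes the transcription factor activated by IRE1 (chr11:5520659-5525893, plus strand). Its counts are summed over the gene and do not separate the spliced from the unspliced mRNA. Xbp1 reached 31.8, 37.5 and 47.2 CPM in WT A to C, compared with 50.8, 40.8 and 46.8 CPM in knockout A to C. WT replicate C was as high as knockout replicate C. Between the genotypes Xbp1 differed by 0.25 (SE 0.14, 95% interval -0.048 to 0.54, edgeR adjusted p 0.277), with 0.12 without WT replicate A and 0.42 without WT replicate C as extremes.

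Herpud1, which encodes a membrane protein of ER-associated degradation (chr8:94386438-94395377, plus strand), went the other way from Hspa5 and Xbp1 in its estimate. From A to C the WT libraries held 58.2, 51.0 and 60.1 CPM and the knockout libraries 44.9, 52.1 and 47.8 CPM. Only the order of WT replicate B and knockout replicate B made the groups overlap. The estimate of -0.23 (SE 0.10, 95% interval -0.45 to -0.0039) had an adjusted p of 0.180 in edgeR.

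**Figure D2:**
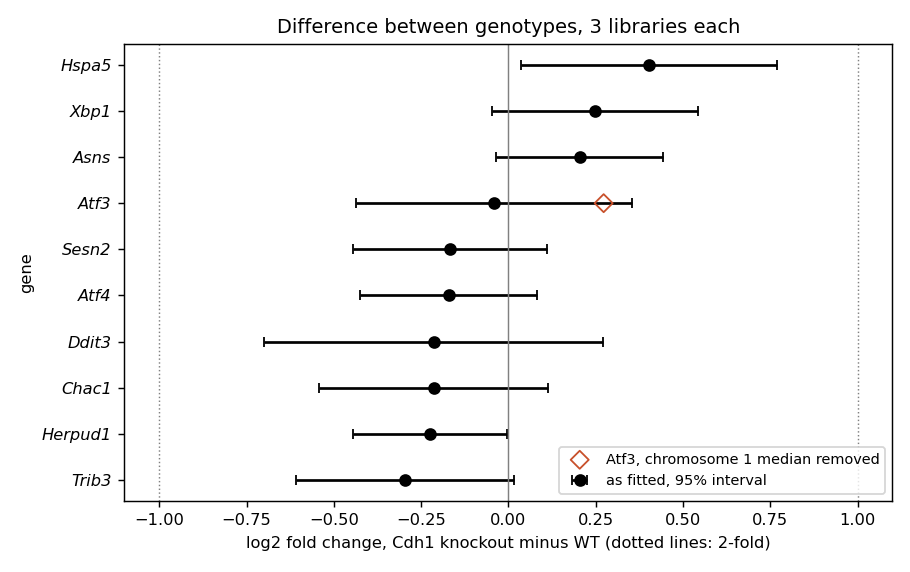
Log2 fold change of each member, knockout minus WT (horizontal axis), with its 95% interval from 3 libraries per genotype, dotted lines at a 2-fold change and an open diamond for Atf3 after the chromosome 1 median was removed. No interval reaches a 2-fold change, Hspa5 has the highest estimate (0.40) and Trib3 the lowest (-0.30).

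The members varied within a genotype, and they varied in groups. Each library was set against the mean of its own genotype on a log2 CPM scale. From the lowest to the highest library of a genotype, a member spanned 0.24 to 0.66 in WT and 0.21 to 1.21 in the knockout, while the estimated differences between genotypes reached at most 0.40. WT replicate B was the lowest WT library for 7 of 10 members, against 32.8% of all tested genes. Knockout replicate A was the lowest knockout library for 7 of 10 members, against 37.2% of all tested genes. Trib3 deviated by -0.36 and Chac1 by -0.41 in WT replicate B, and by 0.29 and 0.26 in knockout replicate B. Hspa5 and Xbp1 did not share this arrangement: in WT replicate A they deviated by -0.30 and -0.27, in WT replicate C by 0.36 and 0.30, and in knockout replicate B by -0.44 and -0.17. Ddit3 deviated by 0.72 in knockout replicate A and by -0.49 in knockout replicate B, the widest range of the members.

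As a description over 6 libraries, which all members share, Pearson's r of these deviations was 0.99 between Trib3 and Chac1, 0.95 between Atf3 and Atf4, and 0.93 between Hspa5 and Xbp1. It was -0.89 between Ddit3 and Atf4 and -0.88 between Ddit3 and Atf3, although Ddit3 is known as a target of ATF4. With the deviations of 3 libraries summing to 0 in each genotype, such values rest on few free points. In this respect the members did not divide wholly by the function of the encoded protein. Herpud1, a gene of ER-associated degradation whose promoter window also held the ATF4 core, had an r of 0.97 with Trib3, 0.95 with Chac1 and 0.94 with Atf4. Its r was -0.30 with Hspa5 and -0.13 with Xbp1. Asns, an ATF4 target, had its highest r with Atf4 (0.72) and Atf3 (0.71), followed by Sesn2 (0.56). Its r was 0.54 with Herpud1, 0.33 with Trib3 and 0.31 with Chac1, and 0.54 with Xbp1 and 0.44 with Hspa5.

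**Figure D3:**
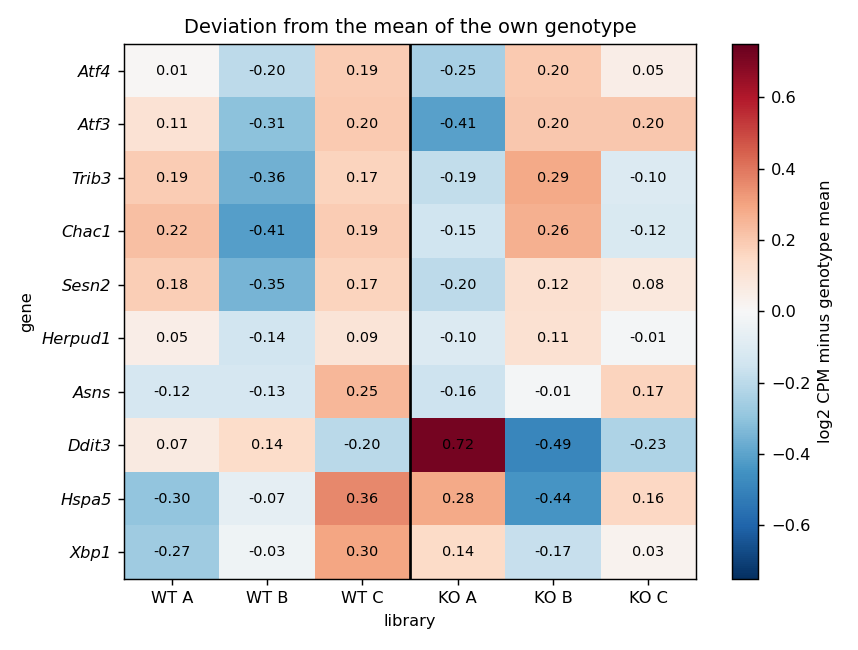
Deviation of each member (rows) in each library (columns) from the mean of its own genotype, in log2 CPM, with red above and blue below the mean. WT replicate B and knockout replicate A are low for the rows from Atf4 to Asns, with Asns about as low in WT replicate A. Ddit3 is high in knockout replicate A (0.72) and Hspa5 is low in knockout replicate B (-0.44).

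A similar library arrangement was seen among other targets of ATF4. Of 45 listed ATF4 targets, mainly of amino acid synthesis, amino acid transport and tRNA charging, 40 were lowest in WT replicate B among the WT libraries, against 32.8% of all tested genes. In the knockout 35 of the 45 were lowest in replicate A, against 37.2% of all genes, and 36 were highest in replicate B, against 31.0%. Their median deviation was -0.14 in WT replicate B, -0.12 in knockout replicate A, 0.12 in WT replicate C and 0.099 in knockout replicate B. The 25 ER sensors and chaperones were arranged otherwise: 15 were lowest in WT replicate A and 14 were lowest in knockout replicate B, against 32.4% and 31.0% of all genes. Other lists departed from all genes in some libraries and lay nearer to them in others. Lowest in WT replicate B, against 32.8% of all genes, were 6 of 15 genes of eIF2 signalling (40%). So were 7 of 19 of ER-associated degradation (36.8%) and 8 of 18 of ER translocation (44.4%). In knockout replicate A the lowest were, in the same order, 9 (60%), 6 (31.6%) and 5 (27.8%), against 37.2% of all genes. For ER translocation 10 of 18 (55.6%) were lowest in knockout replicate B. Of 18 heat shock genes of the cytosol and mitochondria, 12 were lowest in WT replicate A (66.7%) and 11 in knockout replicate A (61.1%). Of 15 targets of NRF2, the factor of the antioxidant response, 8 were lowest in WT replicate B (53.3%) and 9 in knockout replicate A (60%).

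Other measures moved with the same libraries. Knockout replicate A, low for the ATF4 targets, had the smallest total count, and 78.1% of its counts from 1 to 10 were even numbers against 81.7% to 83.1% in the other libraries. It was also the lowest knockout library for 8 of 10 embryonic stem cell markers and for 6 of 7 endoderm markers, against 37.2% of all tested genes. WT replicate B was the lowest WT library for 6 of 10 embryonic stem cell markers, against 32.8%. Of the 7 tested fibroblast markers 5 were highest in knockout replicate A among the knockout libraries (median deviation 0.31), against 37.8% of all genes. In WT, 5 of these 7 were highest in replicate A (0.33), against 30.8%. Their part in the library differences of the stress genes was not tested.

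**Figure D4:**
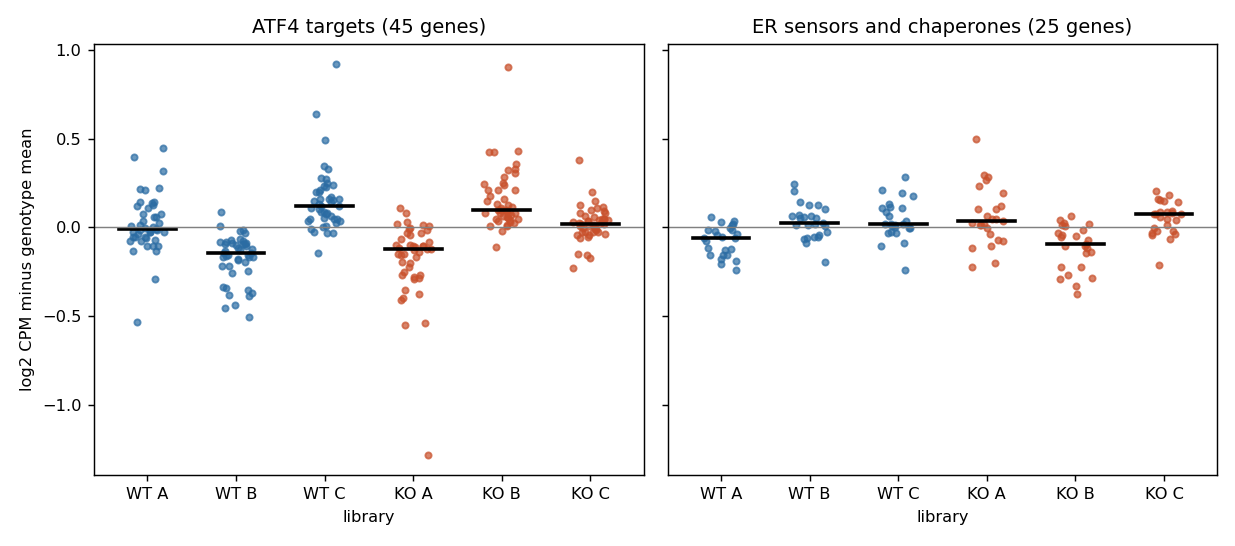
Deviation of 45 ATF4 targets (left) and 25 ER sensors and chaperones (right) from the mean of the own genotype in log2 CPM, one point per gene and library, with the median as a black line. The ATF4 targets lie low in WT replicate B (median -0.14) and knockout replicate A (-0.12), and the ER genes lie low in WT replicate A (-0.058) and knockout replicate B (-0.095).

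Upstream of the members, most genes of eIF2 signalling were not called. Of 15 tested genes 0 were higher and 1 was lower in the knockout, a share called of 6.67% against 13.3% of all tested genes, with a median log2 fold change of 0.026. The lower gene was Impact, which encodes an inhibitor of the kinase GCN2. It stood at 184, 163 and 153 CPM in WT and 131, 119 and 119 CPM for the knockout, with no overlap (log2 fold change -0.44, edgeR adjusted p 0.00484). The 4 eIF2 kinases were not called: the log2 fold change was 0.026 for Eif2ak1 (the kinase HRI, which senses haem), 0.25 for Eif2ak2 (PKR, double-stranded RNA), 0.10 for Eif2ak3 (PERK, ER stress) and 0.17 for Eif2ak4 (GCN2, uncharged tRNA). For the eIF2 phosphatase subunits it was -0.31 for the stress-induced Ppp1r15a (edgeR adjusted p 0.128) and -0.23 for the constitutive Ppp1r15b (0.106), a chromosome 1 gene at 0.082 after that chromosome's median was removed. The Eif2ak1 difference turned its sign in 5 of 17 alternatives, where it lay between -0.035 and -0.0074.

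Among the 45 ATF4 targets, 1 was higher and 6 were lower in the knockout, and the median was -0.045. The share called in either direction, 15.6%, was near the 13.3% of all tested genes. By direction it was less alike: 1 of 45 was higher and 6 of 45 were lower, against 7.60% and 5.71% of all tested genes. The 6 were Slc1a4, a transporter of neutral amino acids, Stc2, which encodes a secreted glycoprotein, Pycr1 of proline synthesis, Psat1 of serine synthesis, Eprs, the tRNA synthetase of glutamate and proline, and Cebpg, a dimerisation partner of ATF4. Psat1 was at 483, 482 and 515 CPM in WT and at 354, 353 and 365 CPM for the knockout (difference -0.47, edgeR adjusted p 0.000964). Slc1a4 was at 94.2, 70.8 and 79.6 CPM in WT and at 52.1, 53.9 and 49.7 CPM for the knockout (-0.65, edgeR adjusted p 0.000974). The groups of both genes were apart, unlike those of the members. Pycr1 had a log2 fold change of -0.49 (edgeR adjusted p 0.00409) and Stc2 of -0.64 (0.00898), the latter not called without WT replicate A (0.0602) or C (0.0636). Cebpg at -0.29 was near the threshold (edgeR adjusted p 0.0451) and was called in none of the 6 fits that left out a library (0.0539 to 0.186). Eprs lies on chromosome 1, and its difference of -0.45 became -0.13 with an adjusted p of 0.375 after the chromosome median was removed. With the medians of chromosomes 1 and 14 removed, 1 of the 45 was higher and 4 were lower, where 9.85% of all tested genes were called. The 1 higher gene was Vegfa, which encodes an angiogenic growth factor, at 156, 157 and 157 CPM in WT and 223, 225 and 214 CPM for the knockout (0.49, edgeR adjusted p 0.000664).

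Of the 25 ER sensors and chaperones, 6 were higher and 1 was lower in the knockout, and the median was 0.12. The share called was 28.0%, against 13.3% of all tested genes. All 3 genes of this list on chromosomes 1 and 14 were among those called. With the medians of these chromosomes removed, 5 were higher and 0 lower, where 9.85% of all tested genes were called. Pdia3, an ER disulfide isomerase, rose from 263, 312 and 320 CPM in WT to 398, 418 and 480 CPM for the knockout (difference 0.53, edgeR adjusted p 0.00212). P4hb, another disulfide isomerase, rose by 0.41 (edgeR adjusted p 0.00291), and Ppib, an ER prolyl isomerase, rose by 0.44 (0.00530). Calr, the lectin chaperone calreticulin, was called at 0.43 (edgeR adjusted p 0.0340), but its libraries overlapped, at 541, 612 and 662 CPM in WT and 983, 657 and 800 CPM for the knockout. It was not called without WT replicate A or B or without knockout replicate A or C, where the adjusted p ranged from 0.0743 to 0.172 and the estimate was 0.27 without knockout replicate A, nor with upper-quartile scaling (0.0535) or library totals (0.0537). The 2 largest estimates, Dnajc3 at 0.86 and Ero1l at 0.82, belong to chromosome 14. With the chromosome medians removed Dnajc3, a co-chaperone of BiP, kept a difference of 0.32 (edgeR adjusted p 0.0447), and Ero1l, the oxidase that drives disulfide formation, was at 0.28 (0.351). Ero1l was highest in knockout replicate A, at 598 CPM against 346 and 365 CPM in B and C, and its estimate as fitted was 0.52 without that library. The lower gene was the sensor Atf6 on chromosome 1, at -0.38 (edgeR adjusted p 0.0106) as fitted and -0.065 (0.713) after removal, and Ern1, which encodes IRE1, was not called at 0.082 (0.714). Without WT replicate A, Atf6 had an adjusted p of 0.0524.

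In 2 further lists of the secretory pathway the place of the calls differed. On the 2 shifted chromosomes lay 3 of 3 calls of ER-associated degradation and 1 of 3 calls of ER translocation. For ER-associated degradation, 1 of 19 tested genes was higher (Selenok, chromosome 14, 0.90) and 2 were lower (Edem3, -0.41, and Ubxn4, -0.37, both chromosome 1), and after the medians were removed 0 were called. As fitted, the share called was 15.8%, near the 13.3% of all tested genes, and for ER translocation it was 16.7%. Selenok and Ubxn4 encode membrane proteins that bind the degradation machinery, and Edem3 encodes a mannosidase that marks glycoproteins for it. Of 18 tested genes of ER translocation, 3 were higher and 0 lower, with a median of 0.18: Spcs1 on chromosome 14 (0.76), Sec61a1 (0.32, edgeR adjusted p 0.0153) and Spcs3 (0.28, 0.0476). Sec61a1 encodes the channel of the ER translocon, and Spcs1 and Spcs3 encode subunits of the signal peptidase. Sec61a1 was not called without WT replicate A (0.0740) or B (0.0681). Spcs3 was called in 7 of 17 alternatives and lost the call without any one of WT replicates A, B and C or knockout replicates A and C (0.0581 to 0.197). Ubxn4 was not called without WT replicate B (0.0658), WT replicate C (0.0610) or knockout replicate C (0.0667). After the medians of chromosomes 1 and 14 were removed, 1 gene of ER translocation was called, and over all tested genes the share called was 9.85% in place of 13.3%. The members called remained 0 of 10.

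Relatives of the members by family were also examined, since they share partners or functions. Of 23 tested genes 2 were higher and 4 lower, with a median of -0.043. The share called was 26.1%, against 13.3% of all tested genes. With the medians of chromosomes 1 and 14 removed, 2 were higher and 1 was lower, where 9.85% of all tested genes were called. Sesn1, a sestrin induced by p53, rose from 21.2, 28.3 and 27.0 CPM in WT to 41.7, 41.0 and 46.7 CPM for the knockout (difference 0.76, edgeR adjusted p 0.000937), with no overlap, while Sesn2 did not pass the test. Trib1, a pseudokinase related to Trib3, was at 7.74, 5.66 and 7.90 CPM in WT and at 10.7, 11.4 and 14.2 CPM for the knockout (0.77, edgeR adjusted p 0.0139). It was not called without WT replicate B (0.0751) or knockout replicate C (0.0744). The difference between such relatives and the members was itself not tested. The lower genes were Atf2 (-0.34), Creb1 (-0.32) and Atf6 of the ATF and CREB family, and Cebpg. Atf6 was also counted among the ER sensors above, and Cebpg among the ATF4 targets. Creb1 and Atf6 lie on chromosome 1, and Creb1 was at -0.012 after the chromosome median was removed (edgeR adjusted p 0.963). Creb1 was called in none of the fits that left out a library (0.0694 to 0.143), and Atf2 was not called without WT replicate A (0.0706), WT replicate C (0.0656) or knockout replicate B (0.0891). Of the 23 genes 2 were called without WT replicate A, and 3 without WT replicate C or knockout replicate B.

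**Figure D5:**
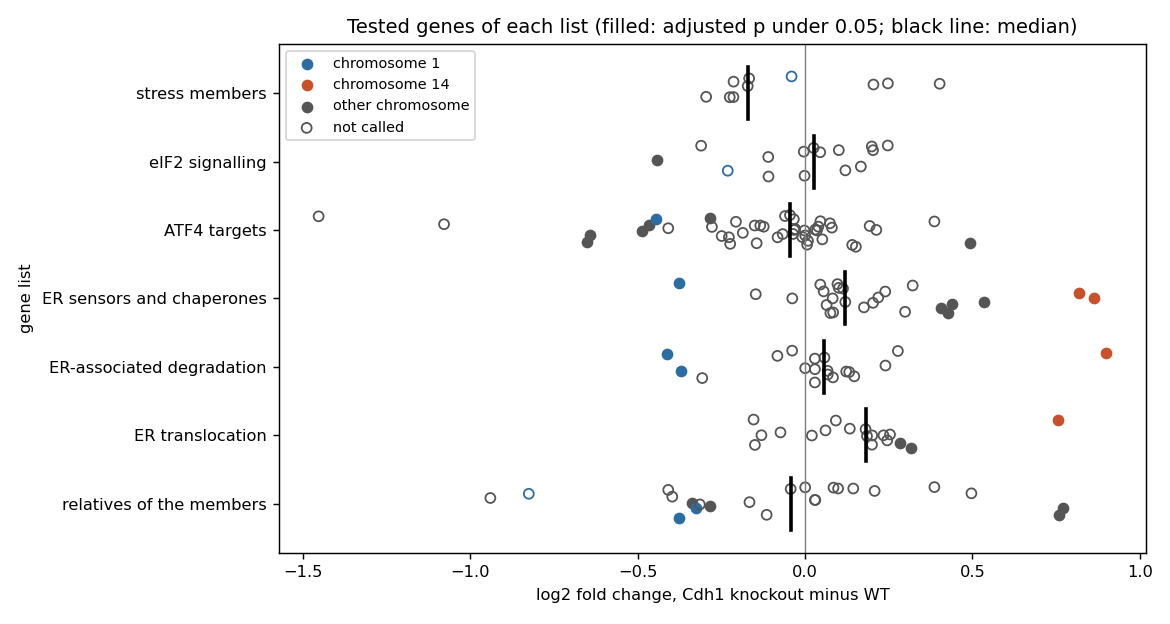
Log2 fold change, knockout minus WT (horizontal axis), of every tested gene in the list of members and in 6 related lists (rows), filled where the adjusted p was under 0.05, coloured by chromosome, with the median of each list as a black line. No point is filled among the 10 members, and the called genes of ER-associated degradation all belong to chromosomes 1 or 14.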

How the data were processed

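Per the labels' protocols, total RNA was isolated with TRIzol and made into libraries with a directional kit. What the authors deposited is a gene table of raw counts, unscaled, beside the exon positions and exon length of each gene. The submitters' processing notes name cutadapt 2.10, STAR 2.7.5b, featureCounts 2.0.1 and the build GRCm38. Their settings, the strand setting included, are not given in the sources used here. An excess of even low counts (78.1% to 83.1%) may come from mates counted separately, so counts divided by 2 were an alternative.

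Counts were fitted in R 4.3.3 with edgeR 4.0.16 (filterByExpr with a smallest count of 10, TMM, glmQLFit and glmQLFTest with genotype as the only term), 3 libraries against 3, with Benjamini-Hochberg adjustment over 17325 genes. SEs were derived from the F statistic. Deviations are log2 CPM with a prior count of 2. Medians of chromosomes 1 and 14 came from genes averaging 100 counts or more and entered the fit as an offset. The procedure was tested on simulated data, with requirements set only for large changes and for unchanged genes. Nothing was required there of differences as small as those of the members. All members were named. So were 8 genes of eIF2 and ER sensing, and from every other list the called genes averaging 50 counts or more, at most the 6 that changed most. Members and lists were chosen with earlier results of these data known.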

Additional observations from a re-analysis of the deposited data

How the results depend on the processing

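Over 17 alternatives (other scaling factors and filters, DESeq2 1.42.0, limma-voom 3.58.1, counts divided by 2, an adjusted p under 0.01, chromosome medians removed, the replicate letter as a block, and 6 fits that each left out one library), 161 of 170 member values stayed on the same side of the threshold with the same sign, 4 became called and 5 changed sign. The number of members called was 1 with every gene of at least 1 count kept, and 0 to 1 with 1 library left out. The sign of Atf3 turned with the medians removed (0.27) and in 3 fits without a library (range -0.18 to 0.13, with 0.0088, 0.068 and 0.13 above 0), that of Ddit3 without knockout replicate B (0.024, range -0.66 to 0.024). Eif2ak1 turned with upper-quartile factors (-0.012), with library totals (-0.011) and without single libraries (range -0.035 to 0.13), and Ppp1r15b turned with the medians removed (0.082). Of 646 values of 38 other named genes, 574 kept their sign and side, 65 were no longer called, 1 became called and 6 changed sign. All genes called were 1242 at an adjusted p under 0.01, and 1374 to 2784 with 1 library left out. Keeping every gene of at least 1 count gave 6 called heat shock genes, 4 NRF2 targets and 6 immediate early genes. Library totals gave 2 of eIF2 signalling. An adjusted p under 0.01 gave 1 gene of ER translocation, 1 relative of the members and 0 heat shock genes, DESeq2 gave 0 heat shock genes, and removed medians gave 0 genes of ER-associated degradation, 1 of ER translocation and 3 relatives. Leaving out 1 library gave 1 to 4 genes of ER translocation, 2 to 5 relatives, 0 to 4 heat shock genes and 3 to 5 immediate early genes. With the replicate block (letters A, B and C as pairs), 0 members, 2686 genes in all, 4 heat shock genes and 5 immediate early genes were called. Same-letter libraries deviated together with r of 0.16, -0.15 and 0.40 over 11371 genes, so the letters were not treated as pairs. The lowest count of a member in any library was 206, and the number of libraries, 3 per genotype, limits the precision of the differences.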

Other observations

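Stress pathways beyond the integrated stress response and the unfolded protein response held genes with larger differences than the members. Of 15 tested targets of NRF2, the factor of the antioxidant response, 2 were higher and 0 lower in the knockout, with a median log2 fold change of 0.15. The share called, 13.3%, equals that of all tested genes. Nqo1, a quinone reductase, rose from 29.6, 24.6 and 24.8 CPM in WT to 58.4, 65.3 and 72.9 CPM for the knockout (difference 1.32 on the log2 scale, SE 0.12). Srxn1, which encodes sulfiredoxin, rose from 38.9, 34.8 and 34.8 CPM to 80.2, 91.8 and 95.2 CPM (1.30, SE 0.10). The genotypes did not overlap for either gene, and both genes stayed called in edgeR's quasi-likelihood test and in all 17 alternatives, with adjusted p-values up to 0.000321 and 0.000186.

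Among 13 tested immediate early genes, 2 were higher and 1 was lower (23.1% called, against 13.3% of all tested genes). Jun, a subunit of the AP-1 transcription factor, rose from 10.8, 12.9 and 13.4 CPM in WT to 21.6, 18.3 and 23.8 CPM for the knockout (0.78, edgeR adjusted p 0.00260). Jund, another AP-1 subunit, also rose by 0.78 (edgeR adjusted p 0.000201). Ier5, a stress-induced regulator on chromosome 1, fell by 0.96 (edgeR adjusted p 0.00704), and was at -0.64 with an adjusted p of 0.0701 after the chromosome median was removed. Of 18 tested heat shock genes of the cytosol and mitochondria, 1 was higher and 0 were lower (5.56% called), with a median of 0.19. This was the chaperone Hspa1b at 3.15, 6.37 and 9.60 CPM in WT and 12.7, 11.1 and 18.5 CPM for the knockout (1.15, edgeR adjusted p 0.0214), a gene that shares sequence with its near-identical copy Hspa1a, so reads could be split between them. DESeq2 did not call it (0.110), nor did the fits without WT replicate A (0.0738), WT replicate B (0.0974) or knockout replicate C (0.114).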
